A study of Mus musculus with 18 samples.

Results

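The binding of RAD21, the kleisin subunit of the cohesin ring, was examined at 41 genes of lipopolysaccharide (LPS) sensing and NF-kB signalling in mouse splenic B cells. All 41 were found among the 22367 protein-coding genes of the mm9 annotation. A RAD21 site was counted for a gene when the centre of a peak in any of the 12 peak lists fell in the gene body or within 20 kb of it. By this rule 59 of the 18957 RAD21 sites of the series belonged to these genes, and no site fell in the windows of more than 1 of them. A site is the stretch covered by peaks of different lists that share at least 1 bp.

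The B cells came from the spleens of C57BL/6 mice (C57BL/6J in the methods) aged 8 to 10 weeks and were either left resting or cultured with 50 µg/ml LPS and 2 ng/ml IL-4, the stimulus for class switching to IgG1, for 48 h or 96 h. There were 3 biological replicates a time point, every one made from the pooled B cells of 12 mice, so that differences between single animals are not seen. The 96 h cells were further enriched for IgG1-positive cells by depletion of other cells, a step the resting and 48 h cells did not have, so that time in culture and this purification cannot be told apart. The lists hold RAD21 peaks only and no expression, so the B cell identity of the samples was not checked here, and neither the share of cells with cohesin at a site nor its occupancy per cell can be read separately from a peak.

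LPS is held by MD-2 and recognised by TLR4, with CD14 handing it over, and B cells in addition carry RP105 (Cd180) with its partner MD-1 (Ly86). The adaptors MyD88 and TIRAP recruit IRAK kinases and TRAF6, these switch on TAK1, and TAK1 activates the IKK complex, which marks IkB proteins for destruction and so frees NF-kB to enter the nucleus. Many inhibitors of the pathway, among them IkB-alpha and A20, are themselves NF-kB targets and close the loop. Cohesin extrudes and holds chromatin loops in interphase and is often stopped at DNA bound by CTCF, a zinc finger protein whose binding direction matters for which loops form.

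The sequences under the best supported of these sites are shown first. Each stretch holds 100 bases of mm9, read 5′ to 3′ on the strand of the match, and the capitals mark the best match to a 20-base motif learned from the strongest RAD21 sites outside the windows of the 41 genes. The consensus of that motif, nccacnagggggcgcnnnnn, has the letters of the known CTCF core motif. The first set holds the 5 sites called in 7 or 8 replicates, the other 2 sites of Nfkbia, which stand in a row with one of them, and the site at the start of Tnfaip3, as examples at inhibitor genes.

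Cd180 14.8 kb upstream, chr13:103468732-103468831, plus strand: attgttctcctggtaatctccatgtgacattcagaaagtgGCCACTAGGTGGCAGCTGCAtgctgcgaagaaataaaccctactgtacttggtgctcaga
Irak2 start, chr6:113588326-113588425, plus strand: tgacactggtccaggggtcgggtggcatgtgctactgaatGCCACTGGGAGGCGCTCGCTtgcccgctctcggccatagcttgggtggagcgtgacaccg
Traf5 start, chr1:193916932-193917031, minus strand: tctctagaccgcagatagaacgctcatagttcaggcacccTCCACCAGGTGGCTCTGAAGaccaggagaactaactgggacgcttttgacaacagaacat
Nfkbiz 14.2 kb upstream, chr16:55853123-55853222, minus strand: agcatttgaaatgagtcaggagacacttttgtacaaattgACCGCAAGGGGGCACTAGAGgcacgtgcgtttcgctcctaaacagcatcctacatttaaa
Nfkbia 2.6 kb upstream, chr12:56596194-56596293, minus strand: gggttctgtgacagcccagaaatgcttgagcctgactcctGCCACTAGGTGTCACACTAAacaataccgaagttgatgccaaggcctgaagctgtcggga
Nfkbia 6.6 kb upstream, chr12:56600204-56600303, minus strand: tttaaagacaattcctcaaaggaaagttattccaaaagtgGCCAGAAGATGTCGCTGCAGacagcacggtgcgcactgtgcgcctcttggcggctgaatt
Nfkbia 13.5 kb upstream, chr12:56607068-56607167, minus strand: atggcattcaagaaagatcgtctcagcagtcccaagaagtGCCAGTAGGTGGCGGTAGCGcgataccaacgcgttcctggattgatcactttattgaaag
Tnfaip3 intron 1, chr10:18735230-18735329, plus strand: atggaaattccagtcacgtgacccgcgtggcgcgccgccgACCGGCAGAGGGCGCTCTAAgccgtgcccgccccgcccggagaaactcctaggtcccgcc

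The second set holds the sites that all 96 h replicates had and that no replicate of resting cells, or no replicate of 48 h cells, had.

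Myd88 10.8 kb upstream, chr9:119261330-119261429, minus strand: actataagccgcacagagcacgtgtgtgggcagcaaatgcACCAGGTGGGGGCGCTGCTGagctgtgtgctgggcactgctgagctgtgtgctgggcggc
Cd40 2.2 kb past its end, chr2:164900561-164900660, plus strand: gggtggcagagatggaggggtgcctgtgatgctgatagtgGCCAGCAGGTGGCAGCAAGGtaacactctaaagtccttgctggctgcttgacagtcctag
Traf3 5.5 kb past its end, chr12:112510776-112510875, plus strand: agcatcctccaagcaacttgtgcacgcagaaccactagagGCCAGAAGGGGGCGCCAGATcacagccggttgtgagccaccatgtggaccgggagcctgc
Bcl3 5.3 kb past its end, chr7:20388435-20388534, plus strand: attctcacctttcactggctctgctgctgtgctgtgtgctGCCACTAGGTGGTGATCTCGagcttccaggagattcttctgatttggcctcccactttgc
Tlr9 10.5 kb upstream, chr9:106114415-106114514, minus strand: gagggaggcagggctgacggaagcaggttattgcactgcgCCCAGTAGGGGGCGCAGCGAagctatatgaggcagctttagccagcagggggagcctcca

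The third set holds 3 of the 5 sites seen only with 48 h replicate 2, printed whole on the plus strand, which had no match to the motif.

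Ly86 intron 3, chr13:37494279-37494341: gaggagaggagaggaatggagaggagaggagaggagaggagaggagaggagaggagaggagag
Nfkb1 7.4 kb past its end, chr3:135240217-135240302: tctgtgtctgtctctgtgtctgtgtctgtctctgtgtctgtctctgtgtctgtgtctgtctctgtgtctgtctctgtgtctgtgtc
Nfkb1 7.2 kb past its end, chr3:135240411-135240489: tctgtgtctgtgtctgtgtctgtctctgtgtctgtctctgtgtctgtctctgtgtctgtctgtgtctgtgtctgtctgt

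The lists differed in length, and 1 of them stood apart. The replicates held 821 to 8579 peaks, and the pooled lists 5690 at rest, 5579 after 48 h and 12806 after 96 h. The list of 48 h replicate 2 was unlike the others: 4553 sites of the series were seen only with it, and 63.7% of those held a short tandem repeat. A short tandem repeat here is a unit of at most 4 bases repeated over at least 20 bases. Results of the 48 h cells are therefore given with and without it.

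RAD21 sites lay at most of the pathway, and more of its genes had one than genes of similar length did. A peak of any list lay in the window of 29 of the 41 genes (70.7%), compared with 55.3% of all protein-coding genes and a mean of 59.3% for genes whose body length was within 25% of each member's. Length matters here because the bodies of the 41 genes were longer than most, with a median of 24488 bp against 15427 bp over all genes. The number of sites per gene ran from 0 to 4. It was 0 at 12 genes, 1 at 12, 2 at 6, 3 at 9 and 4 at 2, namely Ticam1 and Nfkb1. No peak was called at Tlr4, Ly96, Ticam2, Irak1, Map3k7, Tab1, Tab2, Chuk, Ikbkb, Rela, Birc3 and Tlr7. A missing peak says only that the caller's threshold was not passed there.

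Counted by step of the pathway, TLR4 and its partner MD-2 (Ly96) had no site, while the other 3 LPS receptor genes, Cd180, Ly86 and Cd14, held 6. Irak1 had none, and Irak2 and Irak4 held 4. Neither IKK kinase gene had a site, and of the 4 genes of the TAK1 complex Tab3 alone had one. All 5 IkB genes and all 5 TRAF genes had at least 1 site, with 12 and 11 sites in total, to be read against the 59.3% of genes of similar length that had any. The 5 NF-kB subunit genes held 9 sites at 4 genes, with Rela lacking any. The 4 adaptor genes held 6 sites at 3 genes. Support by replicates differed as well. At least 3 of the 9 replicates had called 7 of the 12 IkB sites, 3 of the 11 TRAF sites and 1 of the 9 subunit sites, against 22.2% of all sites near protein-coding genes. Of the subunit sites, 5 were called in no single replicate and only in pooled reads. Over all sites near protein-coding genes, 79.0% were called in at least 1 replicate. These are counts over small groups of genes and were not tested.

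**Figure D1:**
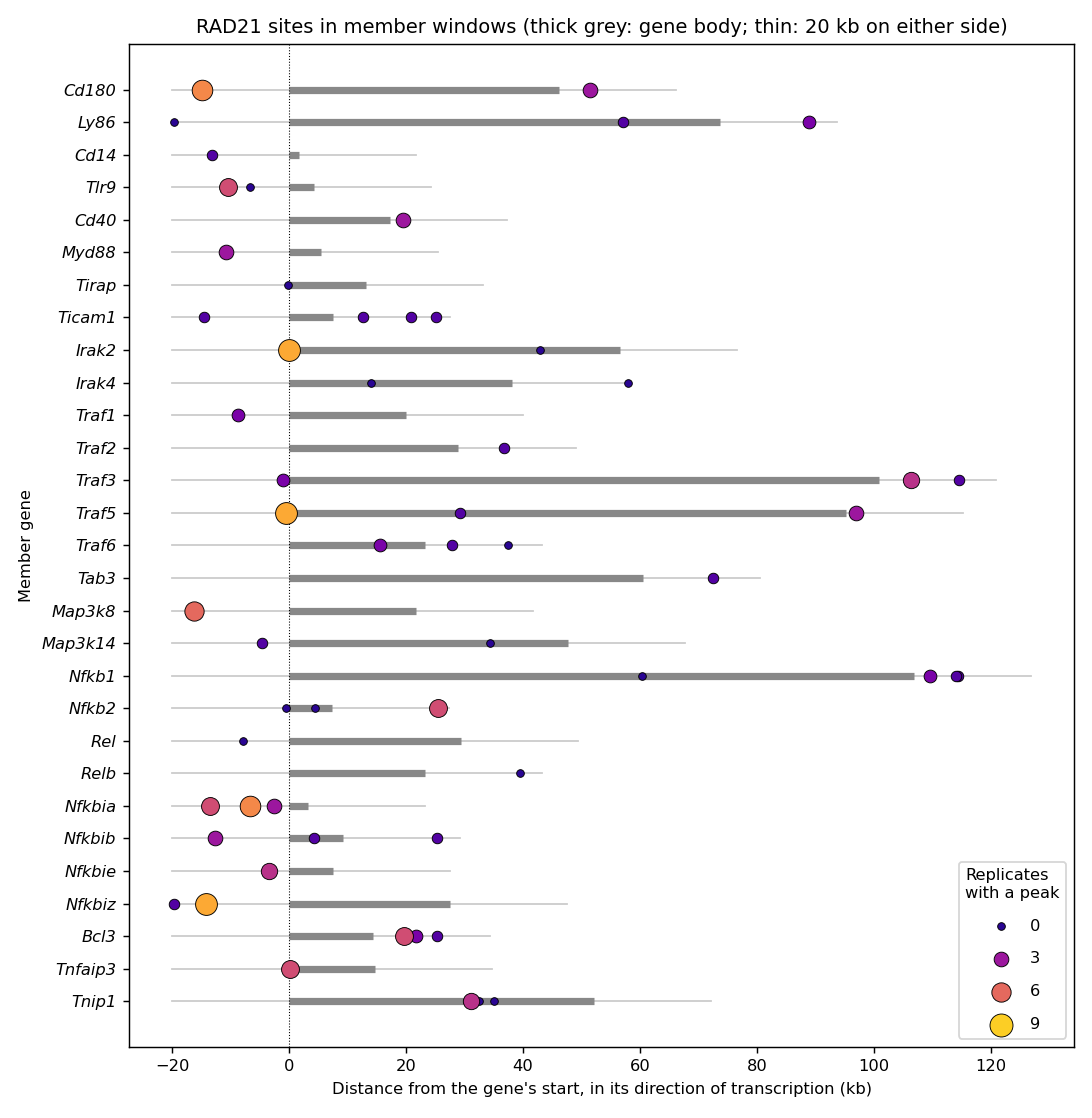
Position of the 59 RAD21 sites (points) relative to the start of each of the 29 genes that had one, in kb along the direction of transcription; thick grey bars are gene bodies, thin lines the 20 kb on either side, and larger, lighter points mark sites with a peak in more of the 9 replicates. The points with most replicates lie at or upstream of the starts of Cd180, Irak2, Traf5, Nfkbia and Nfkbiz.

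The question of the time course was at which of these genes cohesin was called before, during and late in the stimulation. In the lists called on the pooled reads of a time point, 21 of the 41 genes (51.2%) had a site in resting B cells, 13 (31.7%) after 48 h and 28 (68.3%) after 96 h. The share among all protein-coding genes was 26.5%, 20.8% and 47.6%, and among genes of similar length 29.3%, 21.9% and 52.2%. The members were thus above genes of similar length by 21.9, 9.80 and 16.1 percentage points. Without the pooled peaks that rested on 48 h replicate 2 alone, the 48 h count was 12, against 17.9% of genes of similar length. With only the 5579 peaks of highest score kept in each, 21, 13 and 17 of the 41 genes had a site, and genes of similar length 28.9%, 21.9% and 29.7%. The higher count at 96 h than in resting cells was therefore seen only with the longer list.

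As deposited, 8 of the 9 replicates showed the same excess. In resting B cells, 14 genes (34.1%), 4 (9.76%) and 13 (31.7%) had a peak in replicates 1, 2 and 3, against 12.8%, 5.06% and 20.5% of genes of similar length. After 48 h the counts were 7 (17.1%), 4 (9.76%) and 9 (22.0%), against 8.64%, 11.6% and 8.6%. After 96 h they were 13 (31.7%), 17 (41.5%) and 24 (58.5%), against 16.4%, 24.7% and 40.6%. The exception was 48 h replicate 2, where the difference between members and genes of similar length was -1.81 percentage points. The counts overlapped between resting and 96 h replicates and between resting and 48 h replicates, while every 96 h replicate was above every 48 h replicate. The shares of genes of similar length separated the 48 h from the 96 h replicates in the same way. With only the 821 peaks of highest score kept in each list, the excess was seen in 6 of the 9 replicates. The 48 h counts were then 6, 0 and 6 and the 96 h counts 6, 4 and 2, so that they overlapped. The members then lay below genes of similar length in resting replicate 3 (4.88% against 5.44%), 48 h replicate 2 (0% against 2.06%) and 96 h replicate 3 (4.88% against 5.38%).

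**Figure D2:**
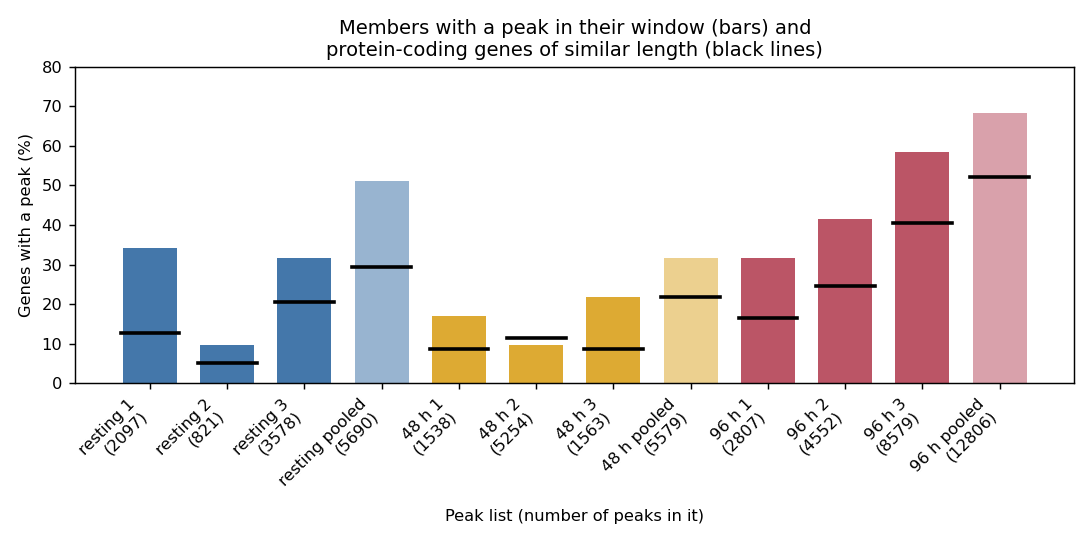
Share of the 41 genes with a peak in their window (bars, %) in each of the 9 replicate lists and the 3 pooled lists, with the number of peaks of the list under its name; black lines give the mean share for protein-coding genes of similar length. The bar lies above the line in every list but that of 48 h replicate 2, where 9.76% of the members stand against 11.6%.

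Genes whose site was called more than once were also more frequent among the members. At least 2 replicates of the time point shared a site at 9 genes in resting cells (22.0%, against 9.93% of all genes), 5 after 48 h (12.2%, against 3.91%) and 16 after 96 h (39.0%, against 22.8%). Genes of similar length had shares of 10.9%, 4.23% and 25.3%. The 5 genes at 48 h were Irak2, Traf5, Nfkbia, Nfkbiz and Map3k8. Replicate 2 had no peak at the sites behind this count. All 3 replicates shared a site at Cd180, Irak2, Traf5 and Nfkbiz in resting cells, at none of the genes after 48 h, and at 12 genes after 96 h: Cd180, Myd88, Irak2, Traf3, Traf5, Nfkb2, Nfkbia, Nfkbiz, Bcl3, Tnfaip3, Cd40 and Tlr9. The 4 resting genes were all among these 12. As shares of the members these counts were 9.76%, 0% and 29.3%. Over all genes 3.08%, 0.416% and 10.5% had such a site, and over genes of similar length 3.45%, 0.444% and 11.6%. A site in all 3 of the 48 h replicates was thus rare at any gene.

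Set against the number of peaks in each list, the windows of the 41 genes took similar numbers at the 3 time points. They cover 3.03 Mb of 2655 Mb, or 1.14 per 1000 bp. In resting replicates 7.15, 4.87 and 5.03 of every 1000 peaks lay in them (5.69 ± 1.27, SD, n = 3), in 48 h replicates 4.55, 0.952 and 7.04 (4.18 ± 3.06), and in 96 h replicates 5.34, 4.17 and 4.08 (4.53 ± 0.704). The ranges of the time points overlapped. Without replicate 2 the 48 h mean was 5.79. That replicate was the only one below the share of the genome, with 5 of its 5254 peaks in these windows.

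**Figure D3:**
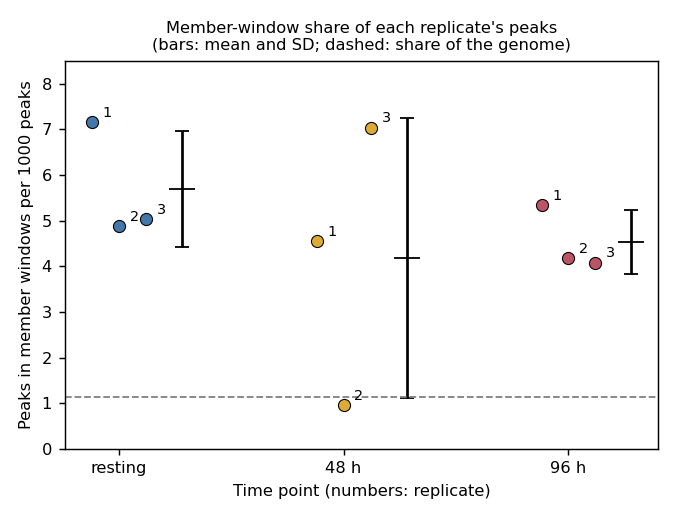
Peaks in the windows of the 41 genes per 1000 peaks of each replicate (points, numbered by replicate), with the mean and SD of the 3 replicates beside them and the share of the genome covered by the windows as a dashed line at 1.14. Values lie between 4.08 and 7.15 in 8 replicates and at 0.952 in 48 h replicate 2.

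At the receptors, the most often called site lay 14835 bp upstream of Cd180, a relative of TLR4 on B cells, between genes (chr13:103468653-103468962). It had a peak in 7 of the 9 replicates. Scores of the caller are given as percentiles, the share of peaks of the same list that scored lower, since their scale is not known and lists cannot be compared directly. The score stood at the percentiles 97.0, 24.4 and 37.9 in resting replicates 1, 2 and 3, at 56.8 in 48 h replicate 3 only, and at 48.6, 74.5 and 85.2 in the 96 h replicates. Resting and 96 h percentiles overlapped, while the pooled lists gave 94.9 in resting cells, 4.49 after 48 h and 93.3 after 96 h. A second Cd180 site, 5449 bp past the gene's end in intron 26 of Mast4, was seen in 1 replicate of each time point, at percentile 37.9 in resting replicate 3, 82.5 in 48 h replicate 1 and 36.2 in 96 h replicate 3. Ly86, which encodes MD-1, and Cd14 had no site in more than 2 replicates.

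Tlr9, the endosomal receptor for CpG DNA, had a site 10503 bp upstream in intron 3 of Twf2 (chr9:106114288-106114602). It was called in resting replicates 1 and 3, at percentiles 79.6 and 6.65, in no 48 h replicate, and in all 96 h replicates at 87.9, 87.6 and 86.2. Cd40, the receptor for T cell help, had its single site 2172 bp past the gene's end (chr2:164900456-164900779). No resting and no 48 h replicate had a peak there, and the 96 h replicates scored at 57.8, 21.1 and 82.4. The presence of both sites thus separated the 48 h from the 96 h replicates, and for Cd40 the resting from the 96 h replicates too.

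Among the adaptors, Myd88, which passes the signal of nearly all Toll-like receptors, had 1 site, 10843 bp upstream and closer to the start of Xylb (chr9:119261248-119261495). The percentiles were 23.5, 75.3 and 61.9 in the 96 h replicates, and no peak was called in the other 6. Ticam1, which encodes the adaptor TRIF of the MyD88-independent branch, had 4 sites around it. Each was called in 1 replicate, always of the 96 h cells, and 1 of them also in the pooled resting reads. All 4 were closer to the start of another gene, Fem1a or Plin3, as near as 830 bp and 857 bp. Tirap, which brings MyD88 to the membrane, had a site 152 bp upstream of its start in the 96 h pooled list alone, at percentile 6.6.

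Irak2, a kinase of the MyD88 complex, had a site 42 bp upstream of its start (chr6:113588241-113588603). Among the sites of the 41 genes it had the highest percentiles after 96 h, but not in resting or 48 h cells. Resting replicates 1, 2 and 3 placed it at percentiles 35.8, 61.8 and 94.5, 48 h replicates 1 and 3 at 77.6 and 63.5, and the 96 h replicates at 96.6, 99.9 and 99.8. Every 96 h percentile was above every earlier one, and the share of all sites for which this held was not counted. The rank of a site in its list also moves with the other sites called, and no test was made of it. Irak4, the first kinase of the complex, had 2 sites called in the 96 h pooled list only, and Irak1 none.

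The TRAF proteins are the ubiquitin ligases and scaffolds that carry the signal from receptors to kinases. Traf5 had a site 518 bp upstream of its start (chr1:193916803-193917113) in 8 replicates, at percentiles 82.1, 70.8 and 45.8 in resting cells, 52.1 and 89.4 in 48 h replicates 1 and 3, and 40.4, 61.9 and 90.8 after 96 h. The 3 time points overlapped there. A second Traf5 site 1716 bp past the gene's end was seen in resting replicate 3 at percentile 1.65 and in 96 h replicates 1 and 3 at 34.9 and 44.5. Traf3, which restrains the alternative NF-kB pathway, had a site 5463 bp past its end in intron 3 of Amn (chr12:112510710-112510979), called in no resting replicate, in 48 h replicate 3 at percentile 5.15, and in all 96 h replicates at 23.5, 53.3 and 64.0. Another Traf3 site, 1007 bp upstream of its start, was called in 96 h replicates 1 and 2 at 63.1 and 7.08. Traf1, Traf2 and Traf6 had sites in at most 2 replicates each.

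Of the kinases that act above NF-kB, Map3k8 (TPL2) had a site 16276 bp upstream, closer to the start of Mtpap, in 2 replicates of each time point. The percentiles were 70.7 and 69.0 in resting replicates 1 and 3, 26.1 and 19.5 in 48 h replicates 1 and 3, and 71.4 and 24.0 in 96 h replicates 2 and 3. Both 48 h percentiles were below both resting ones, and the 96 h values overlapped both. How many sites of the series had such an order was not counted. Map3k14 (NIK), the kinase of the alternative pathway, had a site 4696 bp upstream in resting replicate 1 only, at percentile 74.6.

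At the NF-kB subunit genes, few sites were called in several replicates. Nfkb2, which encodes the p100 precursor, had 1 site in 5 replicates, 18054 bp past its end in coding exon 4 of Fbxl15 (chr19:46404527-46404757). Its percentiles were 5.37 in resting replicate 3, 48.1 in 48 h replicate 3, and 74.1, 1.78 and 74.1 in the 96 h replicates. At the promoter of Nfkb2, a site 526 bp upstream was called in the resting pooled list alone, at percentile 1.7. Nfkb1, the longest of the 41 genes at 106893 bp, had no site in more than 2 replicates. Rel and Relb, the subunits that B cells use besides RelA, had 1 site each, called in pooled reads only.

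The IkB genes, whose products hold NF-kB in the cytoplasm or modify it in the nucleus, had 7 of their 12 sites called in 3 or more replicates, more than any other role by number. Nfkbia (IkB-alpha) had 3 sites in a row upstream of its start, at 2577, 6603 and 13469 bp, in 3, 7 and 5 replicates. The middle one (chr12:56600085-56600361) scored at percentiles 41.7 and 84.1 in resting replicates 1 and 3, 75.6 and 86.0 in 48 h replicates 1 and 3, and 85.2, 51.5 and 84.6 after 96 h, with overlap between all time points. It was the only member site besides those of Irak2, Traf5, Nfkbiz and Map3k8 seen in 2 replicates of the 48 h cells. The near site was called in replicate 3 of each time point, at 0.0978, 71.0 and 40.3. The far site was called in resting replicates 1 and 3 at 16.8 and 13.2, in 48 h replicate 3 at 63.5, and in 96 h replicates 2 and 3 at 74.5 and 14.1.

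Nfkbiz, which encodes the nuclear protein IkB-zeta that is induced by LPS, had a site 14152 bp upstream in intron 4 of Fam55c (chr16:55853012-55853311). It was called in 8 replicates, at percentiles 84.4, 94.8 and 34.9 in resting cells, 56.1 and 26.1 in 48 h replicates 1 and 3, and 77.8, 91.3 and 88.8 after 96 h. Both 48 h values were below all 96 h values and overlapped the resting range, an order that was not counted over all sites. Bcl3, another nuclear IkB protein, had a site 5316 bp past its end, closer to the start of Cblc (chr7:20388375-20388622). It was called in resting replicates 1 and 3 at 18 and 73.8, in no 48 h replicate, and in the 96 h replicates at 28.6, 21.1 and 52.8. The pooled 48 h reads did give a peak there, at percentile 38.4. Nfkbie (IkB-epsilon) had a site 3457 bp upstream, closer to the start of Tmem151b. It was called in resting replicates 1 and 3, at 83.6 and 28.5, and 96 h replicates 2 and 3, at 61.9 and 83.2. Nfkbib (IkB-beta) had one 12725 bp upstream in intron 5 of Sirt2, closer to the start of Rinl. It was called in resting replicate 1 at 65.7 and 96 h replicates 2 and 3 at 53.3 and 19.5.

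Both genes of the A20 complex, which removes ubiquitin chains and so ends the signal, had a supported site inside the gene. At Tnfaip3 (A20) it lay in intron 1, 176 bp past the outermost start and 71 bp before that of another transcript (chr10:18735133-18735472). The percentiles were 56.6 in resting replicate 3, 92.7 in 48 h replicate 3, and 83.6, 51.5 and 83.2 in the 96 h replicates. Tnip1, which encodes the A20-binding protein ABIN1, had a site in intron 7, in resting replicate 3 at 3.61, 48 h replicate 1 at 72.3, and 96 h replicates 2 and 3 at 94.7 and 49.4.

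**Figure D4:**
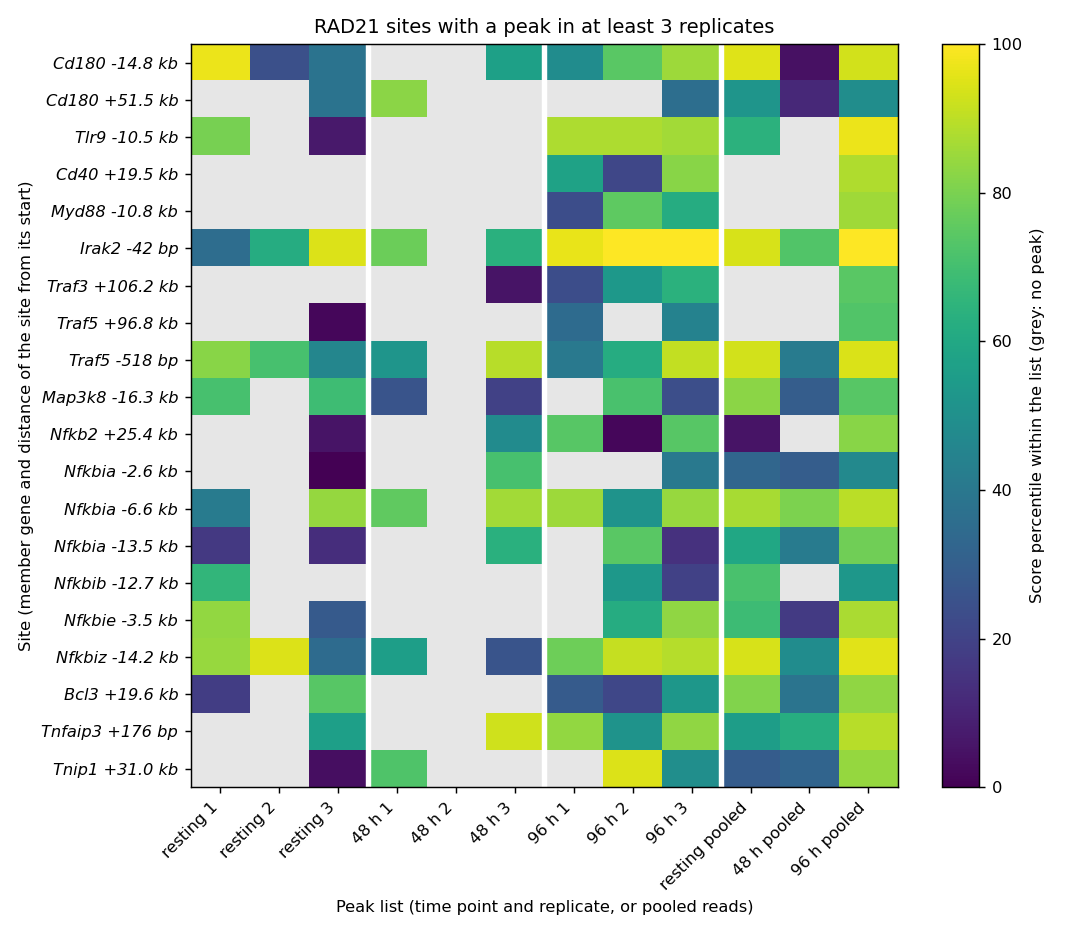
Score percentile (colour, 0 to 100) of the 20 sites called in 3 or more of the 9 replicates, in each replicate and pooled list; site names give the gene and the distance from its start, and grey means no peak. The column of 48 h replicate 2 is grey for all 20 sites, and Irak2 has the highest values at 96 h, up to 99.9 in a single replicate.

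Sites that all replicates of one time point shared and another time point lacked were rare. Of the 39 member sites called in a resting or a 96 h replicate, 3 (7.69%) had a peak in all 96 h and no resting replicates, at Myd88, Traf3 and Cd40. The share over all sites of the series was 5.85%. Of the 43 member sites called in a 48 h or a 96 h replicate, 4 (9.30%) had a peak in all 96 h and no 48 h replicates, at Myd88, Bcl3, Cd40 and Tlr9, against 5.69% over all sites. Without 48 h replicate 2, 4 member sites again met this definition, against 8.67% over all sites. With all replicates, no member site was lost in this way: 0 of 39 from resting to 96 h (0.0876% over all sites) and 0 of 29 from resting to 48 h (1.27%). None was gained from resting to 48 h (0.0605%), and none of 43 was in all 48 h and no 96 h replicates (0.0206%). Without 48 h replicate 2 the shares over all sites were 2.57% lost and 1.48% gained from resting to 48 h, with no member site in either. Without resting replicate 2, the shortest list, 3 member sites were lost from resting to 48 h, at Bcl3, Nfkbie and Tlr9, against 5.94% over all sites. For a single site, Fisher's exact test of 3 against 3 replicates, two-sided, gave p = 0.1, the smallest this design allows, so that no single site passed 0.05. With only the 821 peaks of highest score kept in each replicate, no member site was in all 96 h and no resting, or no 48 h, replicates. Only 13 member sites were then called in a resting or a 96 h replicate, and 12 in a 48 h or a 96 h replicate. The share over all sites in all 96 h and no resting replicates was then 2.39%. With so few member sites, a count of 0 cannot show whether they differed from all sites.

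Member sites were shared between lists more often than sites near other genes. A peak in at least 3 replicates was seen at 20 of the 59 (33.9%), against 22.2% of the 13482 sites within 20 kb of any protein-coding gene. In at least 7 replicates it was 5 (8.47%) against 3.00%, namely the sites at Irak2, Traf5 and Nfkbiz with 8 replicates and those at Cd180 and Nfkbia with 7. Of the member sites, 14 (23.7%) had a peak in all 3 pooled lists, against 13.6%. Another 28 (47.5%) were in the 96 h pooled list alone, against 40.2%. Of these 28, 11 were called in no single replicate and 9 in 96 h replicate 3 alone. How often this held for all sites in the 96 h pooled list alone was not counted, so these numbers are not particular to the members. Only 2 member sites were in the 48 h pooled list alone, both the low-complexity stretches beside Nfkb1 printed above.

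The sites lay mostly outside the gene bodies. Of the 59, 13 fell within the body, 23 upstream and 23 past the end. By annotation 34 (57.6%) were intergenic and 21 (35.6%) intronic, against 43.4% and 51.4% of sites near any protein-coding gene, with 3 more in coding exons and 1 in a 3′UTR. A transcription start lay within 1000 bp of 9 sites (15.3%, against 8.23%), and at 5 of them, beside Tirap, Irak2, Traf5, Nfkb2 and Tnfaip3, it was the gene's own. For 24 sites the nearest start belonged to another gene, so that a site in a window is not thereby a site of that gene.

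The learned motif was found under most of them. A match lay at 51 of the 59 sites (86.4%), against 73.3% of sites near protein-coding genes that were not used to learn it and 5.05% of windows 1 kb away from those that were. Of the 20 sites in at least 3 replicates it was 19 (95.0%, against 93.2%), the exception being the Nfkbie site. The 5 sites called only with 48 h replicate 2 had no match, as was so for all but 1.43% of the 4553 such sites of the series. As the printed letters show, the Ly86 stretch held 98.4% G and A, and those beside Nfkb1 73.3% and 72.2% C and T. Of those not printed, the one past the end of Traf3 held 100% C and T and the one in Nfkbib 60.3% of either pair. The median over all sites was 54.8% and over all sites of 48 h replicate 2 alone 91.2%. The other member sites had a median of 54.0%. A short tandem repeat, with a unit of at most 4 bases, was found in 1 of the 5 (20%), the one at Traf3. Over such sites of the series the share was 63.7%. The repetitive letters of the printed Ly86 and Nfkb1 stretches did not meet that rule, which leaves out longer units. Without the 5 sites of that replicate the motif was present at 51 of 54 (94.4%). The share of sites near protein-coding genes given above still includes such sites and is not the match for this value. A share with the same sites left out was not computed. Whether such stretches gather reads without RAD21 was not tested.

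The direction of the motif is of interest because loops tend to form between sites that face each other. Of the 41 member sites outside the gene body with a match, the motif pointed toward the body at 27 (65.9%), compared with 45.9% of 10998 pairs of a site and a protein-coding gene. All 3 sites upstream of Nfkbia and both upstream of Nfkbiz had the motif on the strand of the gene, and all 3 past the end of Bcl3 had it on the opposite strand, so that each pointed to its gene. The 4 sites around Ticam1 all pointed away from it. No loop was measured here, and these counts were not tested.

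A further 38 genes of the same pathway were counted in the same way. They were chosen by role but with earlier results of these data known, so they are not an independent set. Tlr1 and Tlr6 had the same most often called site, which was counted for both. A peak of any list lay in the window of 32 of them (84.2%), against 55.3% of all protein-coding genes. A pooled peak lay there for 21 (55.3%, against 26.5%) in resting cells, 12 (31.6%, against 20.8%) after 48 h and 27 (71.1%, against 47.6%) after 96 h. These shares were not set against genes of similar length. The most often called sites were those of Tnfrsf13c, the BAFF receptor, and Rbck1, a subunit of the linear ubiquitin ligase, with 8 replicates each, and of Ripk1, the receptor-interacting kinase, with 7. Rbck1 was the only gene among these with a site in all 3 of the 48 h replicates, and in 2 resting and 3 of the 96 h replicates.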

How the data were processed

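RAD21 peaks of 9 ChIP replicates were analysed, 3 per time point. Per the labels and the methods, the authors aligned reads with Bowtie2 to mm9, sampled the libraries down to the same number of distinct positions, and ran MACS 2 with input as control at 1 false discovery rate throughout, for each replicate and for the merged reads of a time point. The deposited unit is a score of the peak caller whose statistic was not given in the sources used here. It served only as a rank within its list. The reads behind a peak are not known, and the 9 input libraries entered only through the authors' calls.

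Gene bodies and features came from GENCODE release M1 and bases from the mm9 genome, read with Python 3.11.15, numpy 2.4.6, scipy 1.17.1 and pysam 0.24.0. Plots were drawn with matplotlib 3.10.9. Peaks sharing at least 1 bp were merged over the 12 lists, or over the 9 replicates for presence in all or none, and assigned by their centre. Percentiles count ties at their midpoint. Genes of similar length were the protein-coding genes within 25% of a member's body length, averaged over members. The motif was learned from the 931 sites called in 6 or more replicates outside the windows of the 41 genes, starting from the word AGAGGGCA, on both strands, with a threshold passed by 5% of 1862 windows 1 kb away. On simulated data all 2000 presence patterns were recovered, 339 of 341 planted motifs were found, and 44 of 800 random sequences were called.

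The genes, the further 38 genes and the lists of roles were chosen with earlier results of these data known, so shares over members carry no p. Sites with a peak in at least 3 replicates, sites present in all or none, and genes with no peak were described by name, and others where they filled out a role. Single sites were compared by Fisher's exact test. Replicate numbers were not taken to pair samples. Lists of different time points had a mean Jaccard index of 0.183 with the same number (9 pairs, 0.0146 to 0.296). With different numbers it was 0.178 (18 pairs, 0.0227 to 0.334). As the lists differed widely in length, these values cannot show whether samples of the same number were handled together. Alternatives covered the window, the score minimum, list length, merging, replicates and the motif threshold. Sequences are shown for selected sites only.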

Additional observations from a re-analysis of the deposited data

How the results depend on the processing

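Of 138 alternative values, 96 stayed within the margin set for them (1.5 times for a count) and 42 moved. None reversed a direction that a test had called, as no test passed its threshold. The number of genes with a site followed the definition. With a peak in at least 2 replicates it was 9, 5 and 16 at rest, 48 h and 96 h, and with all 3 replicates 4, 0 and 12. The shares of genes of similar length were 10.9%, 4.23% and 25.3%, and 3.45%, 0.444% and 11.6%. With the gene body alone the number of genes with a site was 3, 3 and 9, and with 5 kb 9, 7 and 14. Counts with these windows were not set against shares of other genes and do not bear on the excess of members. With scores in the upper part of each list, at or above its median, it was 13, 3 and 19 of the 41, against 17.2%, 9.71% and 32.9% of genes of similar length, so that the 48 h count lay below its share. With pooled lists of equal length the 96 h count was 17. Leaving out a replicate and asking for support of the pooled peak by another gave 13 to 17 genes at rest, 8 at 48 h whichever was left out, and 18 to 24 at 96 h. The lowest count came without resting replicate 1 or 3 and without 96 h replicate 3. Shares of other genes were not set beside these counts either. In alternatives chosen after seeing the data, leaving out pooled peaks supported by 48 h replicate 2 alone gave 12 genes (similar length 17.9%), and by 96 h replicate 3 alone 24 (41.3%).

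Sites in all 96 h and no resting replicates numbered 0 with upper scores and 0 with lists of equal length. The shares over all sites were then 4.67% and 2.39%, with 22 and 13 member sites called at either time point. When a replicate was left out they numbered 3 to 5 (5.97% to 17.5% over all sites), with 5 without resting replicate 3 (9.06%). Those in all 96 h and no 48 h replicates numbered 1 with upper scores and 0 with lists of equal length. Only 25 and 12 member sites were then called at either time point. Without 1 replicate they numbered 4 to 8, with 8 without 48 h replicate 3 (7.57% over all sites). Those in all resting and no 48 h replicates ran from 0 to 3. Bcl3, Nfkbie and Tlr9 were counted without resting replicate 2 (5.94% over all sites), and Cd180 (1 site) without 48 h replicate 3 (2.06%). Blocking by replicate number gave an exact p of 0.25 for such a site in place of 0.1, the smallest p that 3 pairs allow. Peaks per 1000 in the windows were 0.345, 2.42 and 9.89 at rest with 0, 5 and 50 kb, 0.557 and 7.55 after 48 h with 0 and 50 kb, and 0.455, 1.73 and 7.77 after 96 h. Without 1 replicate they ran from 4.95 to 6.09, 2.75 to 5.79 and 4.13 to 4.76. At the motif threshold passed by 1% of windows, 67.8% of member sites matched, which was not set against a share over all sites. The causes were not tested.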
